A study of Mus musculus with 96 samples.

Results

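A set of 10 glycolysis genes was followed across single mouse embryonic stem cells: the glucose transporter gene Slc2a1 and 9 enzyme genes, Hk2, Gpi1, Pfkl, Aldoa, Tpi1, Pgk1, Pgam1, Pkm and Ldha. They were chosen by symbol as steps of 1 pathway, with earlier results of these data known, and make up 10 of 36205 gene identifiers in the count table and 10 of the 10868 genes kept for testing. The cells are wild-type cells of the E14 embryonic stem cell line, whose strain or background the labels give as C57BL/6, cultured with serum and leukaemia inhibitory factor (serum/LIF). The study separated RNA from DNA of each cell by the G&T-seq protocol and sequenced both; its title names the link between transcriptional and epigenetic differences of single cells. Each sample is 1 cell, and the 61 cells analysed are those of the 76 listed serum/LIF wells with a column in the count table. Neither the 16 wells of 2i cells nor the 4 empty wells were used here. The labels name no separate cultures, so every test below measures the spread between these cells and says nothing of other cultures.

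Glycolysis takes glucose from the medium to pyruvate in the cytosol. Uptake through a transporter, phosphorylation by hexokinase and the phosphofructokinase step commit glucose to the pathway, aldolase splits the sugar, and the enzymes below it recover ATP and NADH before lactate dehydrogenase turns pyruvate into lactate and regenerates NAD+. Pluripotent cells in culture are known for a high glycolytic flux, and hypoxia-inducible factors (HIF) and Myc proteins are known activators of many of these genes.

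Total counts per cell ran from 2417702 to 6787261 with a median of 4244480, and 5317 to 10032 genes were detected per cell. The cells carried embryonic stem cell markers, some of them in only part of the cells. Pou5f1 and Sall4 were detected in 61 cells, Tdgf1 in 60, Utf1 in 57, Sox2 in 54, Nanog in 47 and Zfp42 in 42. The 8 primitive endoderm markers had a summed level of 0 to 219 CPM (library-scaled counts, as edgeR's cpm gives them), with a median of 0. Dab2 was detected in 20 cells, Gata6 in 3, Gata4 in 2 and Sox17 in 1. The 8 fibroblast markers had a summed level of 0 to 231 CPM, again with a median of 0; Col1a1 was detected in 7 cells and Postn in none. The 5 neurectoderm markers had a summed level of 0 to 611 CPM with a median of 32.7; Nes was detected in 47 cells, Pax6 in 16, and Sox1 and Neurog2 in none. The part of these few counts in the results below was not tested.

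The upstream sequences are shown first because regulation by HIF is a textbook property of the pathway and one of the tests below uses a HIF target score. Each run gives the 250 bases before a RefSeq start (GRCm38.p6), 5′ to 3′ on the gene's strand, and capitals mark the HIF core, ACGTG or GCGTG, on either strand. The first Ldha promoter holds the most matches of the 10 genes only because each CACGTG counts on both strands. By marked stretches it ties with Pgam1. Slc2a1, Hk2, Pgk1 and Pgam1 hold more than 1 match. Tpi1, the gene with the lowest p against the HIF target score, holds none.
Ldha, chr7:46845554-46845803, plus strand: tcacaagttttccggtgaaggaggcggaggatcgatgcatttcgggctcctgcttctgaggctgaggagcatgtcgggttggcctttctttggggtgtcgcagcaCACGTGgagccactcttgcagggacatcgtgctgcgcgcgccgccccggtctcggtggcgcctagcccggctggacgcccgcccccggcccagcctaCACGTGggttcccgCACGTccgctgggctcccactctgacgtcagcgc
Pgam1, chr19:41911621-41911870, plus strand: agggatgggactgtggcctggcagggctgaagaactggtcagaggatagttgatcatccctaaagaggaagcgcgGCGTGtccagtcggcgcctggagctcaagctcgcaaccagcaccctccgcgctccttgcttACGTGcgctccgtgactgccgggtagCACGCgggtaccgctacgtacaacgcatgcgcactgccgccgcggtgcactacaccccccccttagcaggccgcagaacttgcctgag
Slc2a1, chr4:119108495-119108744, plus strand: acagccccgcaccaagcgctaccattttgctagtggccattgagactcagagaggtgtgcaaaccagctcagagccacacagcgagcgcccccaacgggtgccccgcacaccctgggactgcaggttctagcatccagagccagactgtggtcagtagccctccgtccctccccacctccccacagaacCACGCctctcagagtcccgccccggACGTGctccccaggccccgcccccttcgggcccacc
Hk2, chr6:82774455-82774704, minus strand: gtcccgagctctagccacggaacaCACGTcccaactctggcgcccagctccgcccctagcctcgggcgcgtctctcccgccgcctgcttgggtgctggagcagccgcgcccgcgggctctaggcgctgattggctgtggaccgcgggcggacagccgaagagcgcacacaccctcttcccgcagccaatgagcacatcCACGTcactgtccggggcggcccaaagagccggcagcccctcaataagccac
Pgk1, chrX:106186850-106187099, plus strand: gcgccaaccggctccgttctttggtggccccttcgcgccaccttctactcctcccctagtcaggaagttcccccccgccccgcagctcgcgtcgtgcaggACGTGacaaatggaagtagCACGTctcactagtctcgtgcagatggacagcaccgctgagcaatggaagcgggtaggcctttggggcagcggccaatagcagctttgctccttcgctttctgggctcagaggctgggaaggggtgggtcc
Tpi1, chr6:124814159-124814408, minus strand: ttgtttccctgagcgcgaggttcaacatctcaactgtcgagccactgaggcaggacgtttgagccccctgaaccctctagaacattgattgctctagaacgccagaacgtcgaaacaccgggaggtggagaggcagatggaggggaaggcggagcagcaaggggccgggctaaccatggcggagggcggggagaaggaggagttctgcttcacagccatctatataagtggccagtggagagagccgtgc

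RefSeq lists 14 promoters for the 10 genes. The HIF core occurred in 10 of these 14, against 38.6% of all 32851 promoters of the same length. The ACGTG form alone occurred in 8 of 14, against 16.6% of all promoters. By gene, the core occurred in 8 of the 10 genes and the ACGTG form in 7. These gene counts cannot be set against rates per promoter, since some genes have several promoters. The 14 windows are also not independent. Those of Aldoa at chr7:126799255-126799504 and chr7:126799179-126799428 overlap and hold the same ACGTG match, which is counted in both. The first Ldha promoter had 5 matches, among them both strands of 2 E-boxes, CACGTG, the site of Myc and other basic helix-loop-helix factors. No other promoter of these genes held an E-box, which 6.02% of all promoters did. Pgam1 had 3 matches of the HIF core, and Slc2a1, Hk2 and Pgk1 had 2 each. Gpi1 and Tpi1 had none, which says only that these letters are not in this window. The start of Tpi1 in the GENCODE M21 annotation, chr6:124814296, lies inside its window, so part of that window is within the annotated gene. Windows of Slc2a1, Ldha, Aldoa, Pkm and Pfkl also lie partly or wholly within their annotated genes. The GC box GGGCGG, the letters bound by Sp1, occurred in 9 of 14 promoters and in 32.7% of all. The overlapping Aldoa windows are both among these 9. The GC content of the 14 windows ran from 50.4% to 69.6%, and its part in these counts was not tested. A match is a stretch of letters and not a shown binding site.

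All 10 genes passed the filter on low counts, and 7 were detected in every cell. Together they took 0.435% to 2.23% of a cell's counts, with a median of 1.13%, a range of 5.12-fold between cells. CPM below are scaled by TMM, edgeR's normalization for library composition.

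The plot of levels by gene shows a pair of patterns: Aldoa, Tpi1, Pkm and Ldha form single bands well above 0, and Slc2a1 has a main band and 5 cells near 0.

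**Figure D1:**
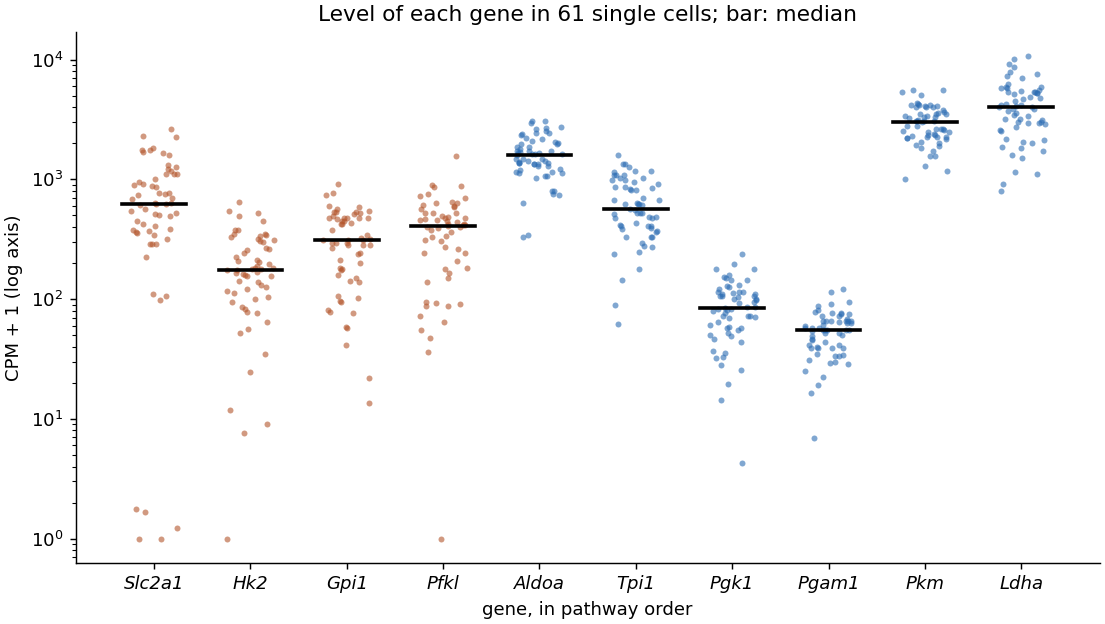
Level of each gene (y axis, CPM + 1 on a log axis) in 61 serum/LIF cells, with genes in pathway order on the x axis; each point is 1 cell, the bar is the median, and orange and blue mark the genes above aldolase and from aldolase down. Slc2a1 has 5 cells at or below 0.770 CPM and all others at or above 98.1 CPM, while Ldha stays between 793 and 10638 CPM.

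Slc2a1 (GLUT1, chr4:119108711-119137983, positions of genes from GENCODE M21 on GRCm38) carries glucose across the plasma membrane. Its level ran from 0 through a median of 627 to 2651 CPM, and it was detected in 59 cells. It was listed at 0 in the cells of wells F01 and G09, where 3 counts would be 0.606 and 0.757 CPM. In A06, B10 and C09 it was at most 0.770 CPM, and the next cell above stood at 98.1 CPM. Slc2a1 counts were thus near 0 or at 98.1 CPM and above, with no cell between. The 5 low cells had 5317 (B10), 6456 (F01), 7887 (G09), 8984 (C09) and 9199 (A06) genes detected, against a median of 8404. Whether transcripts were absent from these cells or lost in their libraries was not tested. These 5 cells are part of the spread and relations given below. The highest cell was H01.

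Hk2 (chr6:82725025-82774454), hexokinase 2, phosphorylates glucose to glucose 6-phosphate. Its level ran from 0 (A02) through a median of 174 to 642 CPM (G02), with detection in 60 cells and values under 10 CPM in A02, D04 and H10. Gpi1 (chr7:34201330-34230336) isomerises glucose 6-phosphate to fructose 6-phosphate. It ran from 12.6 (B03) through 308 to 917 CPM (B01) and was detected in each of the 61 cells. Pfkl (chr10:77986947-78010083), the liver-type subunit of phosphofructokinase, ran from 0 (B05) through 406 to 1560 CPM (D07). The next lowest Pfkl value was 35.1 CPM, so B05 stood alone at the bottom.

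Aldoa (chr7:126795234-126800751), the aldolase that splits fructose 1,6-bisphosphate, ran from 327 (G10) through 1604 to 3082 CPM (E01). Tpi1 (chr6:124810586-124814296), triosephosphate isomerase, ran from 60.4 (B10) through 563 to 1594 CPM (D10). Both were present in every cell, and the third quartile was 1.66 times the first for Aldoa and 2.34 times for Tpi1.

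Pgk1 (chrX:106187100-106203699), phosphoglycerate kinase, makes the first ATP of the lower pathway. Its level was one of the lower ones among the 10 genes, from 3.28 (E09) through 82.8 to 237 CPM (H02). Pgam1 (chr19:41911923-41918660), phosphoglycerate mutase, had the lowest median of the 10 genes in CPM, from 5.95 (B03) through 54 to 121 CPM (F07). Both genes were counted in all 61 cells, and each had 1 cell under 10 CPM.

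Pkm (chr9:59656368-59679375), pyruvate kinase, makes pyruvate and ATP. It ran from 999 (B10) through 3027 to 5583 CPM (C02); its splice forms cannot be told apart in counts per gene. Ldha (chr7:46841475-46855627), lactate dehydrogenase A, ran from 793 (H03) through 4005 to 10638 CPM (E03). Ldha was the highest of the 10 genes and differed 13.4-fold between its extreme cells, although no cell lacked it.

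Levels between genes were compared per kilobase of the longest coding transcript. The median CPM per kb was 2207 for Ldha, 1244 for Pkm, 1035 for Aldoa, 350 for Tpi1, 192 for Slc2a1, 109 for Pfkl, 107 for Gpi1, 45.4 for Pgk1, 31.6 for Hk2 and 30.4 for Pgam1. Ldha exceeded Pkm in 50 of 61 cells and Aldoa exceeded Tpi1 in 59, and only at these 2 steps of the order did the interquartile ranges of neighbouring genes not overlap. Pkm exceeded Aldoa in 37 cells, Pgk1 exceeded Hk2 in 39 and Hk2 exceeded Pgam1 in 33. Pfkl and Gpi1 could not be ordered, since Pfkl was higher in 30 of 61 cells. The median per kb thus differed 72.6-fold between Ldha and Pgam1, which act in a single linear pathway.

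Some of this order touches sequence that other genes share, and how reads with several matching places were counted is not given in the sources used here. Of the 50-base windows of the Pgk1 transcript, 68% also occur in transcripts of other genes, for instance in the copies Pgk1-rs7 and Gm5537. The shares were 41.5% for Pgam1, 34.4% for Pkm, 25.3% for Gpi1, 16.6% for Ldha, 13.5% for Aldoa, 7.51% for Tpi1 and 1.74% for Slc2a1. Hk2 shared none and Pfkl 0.0543%. The deposited counts on copies of Pgk1 and Pgam1 were low. Pgk1-rs7 had 54 counts over all cells against 23023 for Pgk1, and Pgam1-ps2 had 360 against 13492 for Pgam1. Gm1840, which shares 18.6% of the Gpi1 windows, had 3478 counts and was counted in 61 cells, against 82450 counts for Gpi1. If only unshared windows could receive reads, the median per kb of unshared sequence would be 146 for Pgk1, 145 for Gpi1, 53.4 for Pgam1 and 31.8 for Hk2, so Pgk1 and Pgam1 would move up in the order. Gapdh and Eno1, enzymes of the steps on either side of Pgk1 and Pgam1, showed the same kind of sharing, at 82.5% and 72.2% of windows. What this did to the counts was not tested. Slc2a1 and Gpi1 also share exonic sequence with a noncoding gene at their own locus, whose reads cannot be told apart without strand: 202694 counts stand on Slc2a1 and 13138 on Gm12868, 82450 on Gpi1 and 9443 on Gm26762.

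Cell-to-cell spread was described by the squared coefficient of variation divided by that of a trend fitted to the mean level. A ratio of 1 lies on the trend and is not the ratio of a typical kept gene, as the percentages below show. Slc2a1 had the highest ratio of the 10 genes, 2.52, above 86.3% of the kept genes, and 2.33 without its highest cell. Pfkl had 1.57 (above 57.1% of the kept genes), or 1.20 without D07. Ldha had 1.36 (above 47.7%), Hk2 1.25 (42.9%), Gpi1 1.21 (40.7%) and Tpi1 1.14 (37.8%), each lower than most kept genes. Aldoa (0.70), Pkm (0.59), Pgk1 (0.44) and Pgam1 (0.19) lay under the trend. The alternative isozymes Slc2a3 (4.58, above 98.2% of genes) and Ldhb (2.99, above 92.1%) spread more than any of the 10 genes.

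Most pairs of the 10 genes were positively related, mainly among the 6 genes from Aldoa to Ldha. Over the 45 pairs, the Spearman rho of log2(CPM + 1), corrected for the share of genes a cell detected by linear regression, averaged 0.259 (SD 0.179 over pairs); 43 pairs were above 0 and 20 were at least 0.3. Among 3984 other genes at or above the mean level of the lowest member, the mean over pairs was 0.0093, with 52.4% above 0 and 2.63% at least 0.3. These are descriptions over 61 cells that share 1 protocol and, as far as the labels say, 1 culture, and they come without a p. Without the covariate the mean was 0.252, with counts thinned to 2417702 per cell it was 0.251, in the 33 cells of well rows A to D it was 0.298 and in the 28 cells of rows E to H it was 0.191.

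The relation was stronger below the aldolase step than above it, in a split by pathway position chosen after the values were seen. The 6 genes from Aldoa to Ldha had 15 pairs with a mean rho of 0.411, from 0.166 for Pgk1 with Pkm to 0.569 for Pgam1 with Ldha. Tpi1 with Pkm reached 0.544, Aldoa with Ldha 0.532 and Aldoa with Tpi1 0.527. The 4 genes from Slc2a1 to Pfkl had 6 pairs with a mean of 0.0650, from -0.044 for Hk2 with Gpi1 to 0.218 for Slc2a1 with Pfkl. The 24 pairs between the groups averaged 0.213, with the highest for Pfkl with Pkm (0.456), Gpi1 with Pkm (0.426) and Hk2 with Pgam1 (0.421). The upper genes were at 0 in 4 gene-by-cell values and the lower genes in none, and their transcripts are longer, 2884 to 5513 bases against 1549 to 2432. The part of level and length in the split was not tested.

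**Figure D2:**
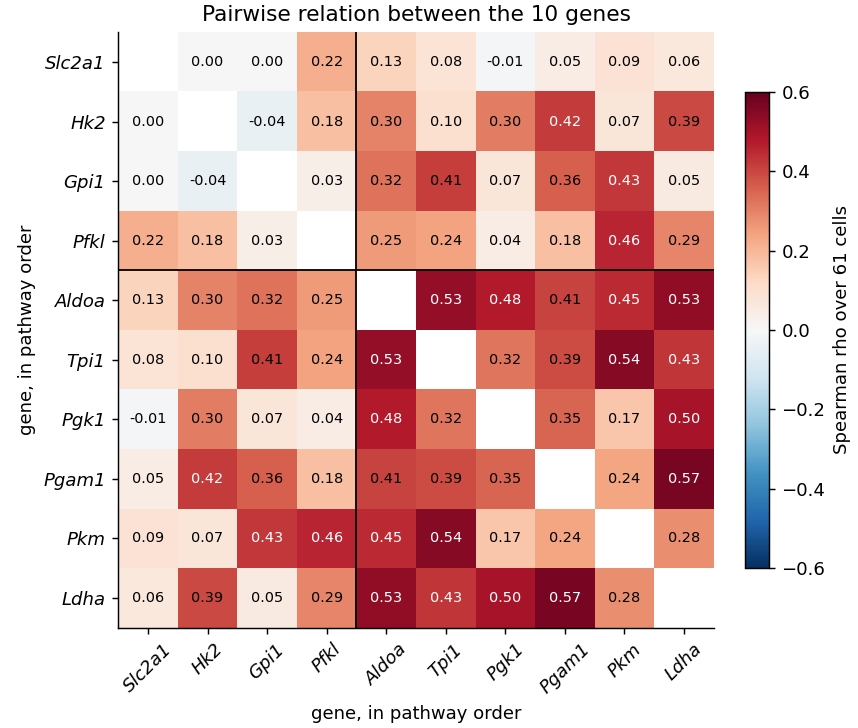
Spearman rho over 61 cells for each pair of the 10 genes, in pathway order on both axes, corrected for the share of detected genes; red is positive, blue negative, and black lines part the 4 genes above aldolase from the 6 genes from aldolase down. The lower right block averages 0.411 and the upper left block 0.0650, with Slc2a1 close to 0 against most genes.

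Slc2a1 stood apart as the gene least related to the others. Its rho with the other 9 genes averaged 0.069, against 0.182 for Gpi1, 0.192 for Hk2, 0.211 for Pfkl, 0.247 for Pgk1, 0.301 for Pkm, 0.329 for Pgam1, 0.339 for Tpi1, 0.345 for Ldha and 0.378 for Aldoa. The transporter's level in a cell was therefore little related to that of the enzymes.

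Single cells show where several genes were high or low at once. The mean z-score of the 10 genes was highest in D07 (1.00) and E03 (0.96), each with 8 of the 10 genes above the third quartile of cells. In E03 Ldha stood at 10638 CPM and Pkm at 5077 CPM, and in D07 Ldha stood at 8667 CPM and Pfkl at 1560 CPM. The lowest cells were B10 (-1.59), A02 (-1.39) and B03 (-1.31), with 7, 7 and 8 genes below the first quartile. In B10 Ldha was at 916 CPM, Pkm at 999 CPM and Tpi1 at 60.4 CPM, yet Aldoa was at 1343 CPM and Pgk1 at 84.3 CPM, close to their medians. D07 had the lowest total count of the 61 cells (2417702) and B10 the fewest genes detected (5317). Without B10 and B05, the cell with the highest mitochondrial share, the mean pairwise rho was 0.239. The rho of the mean z-score with total counts was -0.064 and with genes detected 0.194. By well row its median ran from -0.61 in row H (5 cells) to 0.47 in row D (8 cells), with ranges that overlapped between all rows.

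Most steps had transcripts mainly of 1 isozyme. The share of a gene among the members of its enzyme family, per kb of transcript, was at a median of 100% for Aldoa, Pgk1, Pgam1 and Pkm in 61 cells and for Hk2 in the 60 cells with any hexokinase count. Aldoa was never below 95.9% and Pkm never below 99.8%. Of Pgam1 and Pgam2, only Pgam1 was counted in 56 cells, and its share fell to 41.4% in A04, where Pgam2 was counted. Bpgm, another mutase gene, was detected in 25 cells and was not part of this family. Hk2 was the sole hexokinase in 48 cells. Hk1 was detected in 10 cells, Hk3 in 1, Aldoc in 7, Pgam2 in 5, Pklr in 1, Gapdhs in 8, Eno2 in 4, Slc2a4 in 3 and Ldhc in 4. Slc2a2 and Pgk2 were detected in 0 of 61 cells, which allows a share of up to 4.92% of cells with a count.

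Phosphofructokinase transcripts were mixed, with Pfkl at a median share of 84.5% and under 50% in 7 cells. Pfkp, the platelet-type subunit, was detected in 55 cells at a median of 25.7 CPM and a maximum of 421 CPM (C02), and Pfkm, the muscle-type subunit, in 28 cells. Of the Pfkp windows 17.1% also occur in Pitrm1, which had 48948 counts against 13610 for Pfkp, so reads of the 2 genes may not be fully parted. In B05, the cell without Pfkl counts, the share of Pfkl was 0. Pfkl and Pfkp levels had a rho of 0.084.

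Glucose transporter transcripts were divided between Slc2a1 and Slc2a3. Slc2a3 (GLUT3, a high-affinity transporter known from neurons and early embryos) was detected in all 61 cells, from 42.9 (F01) through 662 to 5853 CPM (G09). Slc2a1 made up a median of 52.6% of the transporter counts per kb, from 0% to 94.4%, and was under 50% in 27 cells. The 2 cells with Slc2a1 at 0 lay at opposite ends for Slc2a3: G09 had the highest Slc2a3 level and F01 the lowest. Over all cells the rho of Slc2a1 with Slc2a3 was 0.319, so a cell low in one was not generally high in the other.

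Lactate dehydrogenase showed the opposite sign. Ldhb, whose tetramer is known from oxidative tissues, was detected in 58 cells, from 0 through a median of 329 to 1786 CPM (F04). Ldha made up a median of 89.1% of the family per kb, and 2 cells lay under 50%. In F04, the lowest at 42.2%, Ldha was at 1812 CPM and Ldhb at 1786 CPM. The rho of Ldha with Ldhb was -0.345 over 61 cells, -0.433 in the 52 cells under the largest gap of the naive pluripotency score, and -0.455 without B05 and B10. It was -0.625 in well rows E to H but -0.082 in rows A to D, so the relation rests mainly on the cells of 1 set of rows.

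**Figure D3:**
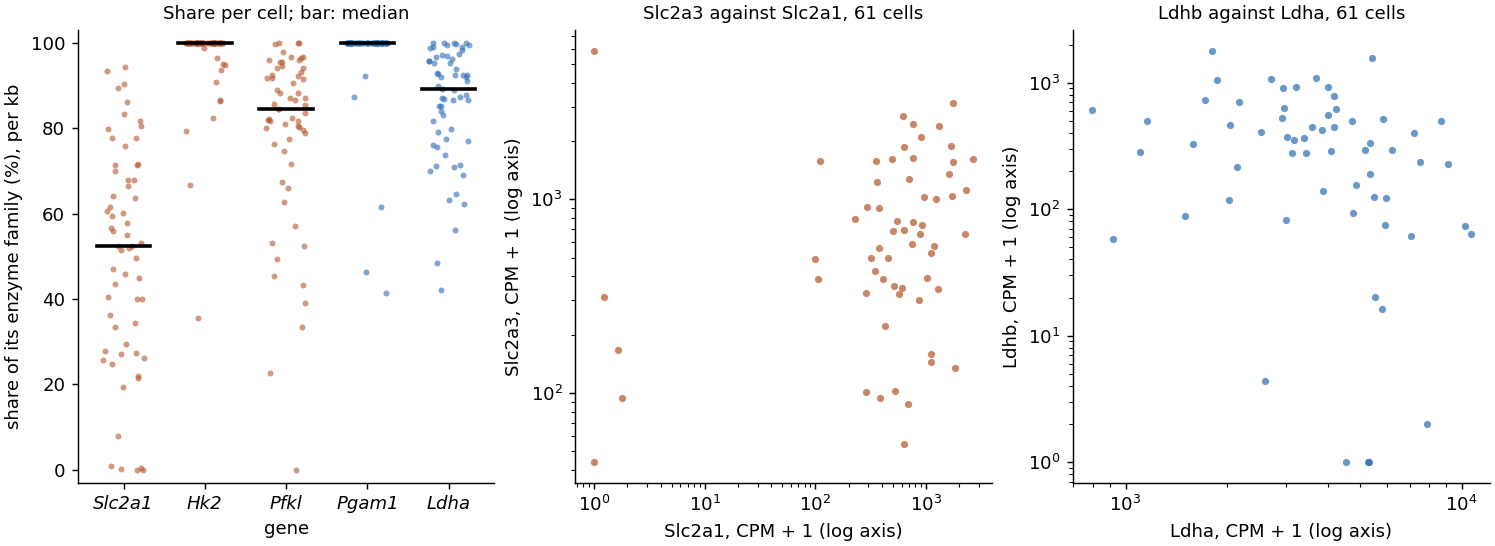
Left, share of each gene in its enzyme family (y axis, percent of CPM per kb) for 5 genes (x axis), with 1 point per cell, the median as a bar and the genes above aldolase in orange; middle and right, Slc2a3 against Slc2a1 and Ldhb against Ldha in 61 cells (CPM + 1, log axes). The Slc2a1 share runs from 0% to 94.4% with a median of 52.6%, the Ldha share has a median of 89.1%, and Ldhb tends downward with Ldha (rho -0.345).

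Pathway genes outside the 10 differed in their relation to the mean of the 10, which was positive for Gapdh and Eno1 and negative for Slc2a3 and Ldhb. Ranked among 10858 other kept genes by rho with the mean z-score of the 10 genes, Gapdh (glyceraldehyde 3-phosphate dehydrogenase) was first at 0.584 and Eno1 (enolase 1) was the fourth at 0.566, and the median over all ranked genes was 0.0038. Eno1b, which shares 84.5% of its windows with other genes and had a rho of 0.961 with Eno1, followed at 0.545. Gapdh ran from 13.7 through 128 to 286 CPM and Eno1 from 424 through 953 to 1634 CPM. Eno3 (0.191), Pfkp (0.148), Bpgm (0.147) and Pfkm (0.104) lay between. Slc2a3 and Ldhb stood at -0.314 and -0.322, although Slc2a3 was positively related to Slc2a1, 1 of the 10. The rho of Slc2a3 with the mean stayed between -0.225 and -0.398 in the alternatives, whereas that of Ldhb was -0.045 in well rows A to D and -0.618 in rows E to H. Slc2a3 and Ldhb had a rho of 0.396 with each other, 0.190 in rows A to D and 0.545 in rows E to H.

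The other genes most like the 10 were Aldoart1 (0.583), an Aldoa-like gene that shares 6.27% of the Aldoa windows, Mif (0.582, macrophage migration inhibitory factor), Dut (0.566, deoxyuridine triphosphatase), Hsp90ab1 (0.562, a cytosolic chaperone), the ribosomal protein genes Rpl18 (0.536) and Rpl27 (0.520), and the processed pseudogene Gm11539 (0.511). The lowest were an unnamed gene, ENSMUSG00000029144 (-0.516), Hcfc1r1 (-0.502), Pdgfa (-0.481, a growth factor subunit), Tmod3 (-0.481, an actin-capping protein) and the pseudogene Gm7665 (-0.472). The likeness is a rank correlation over 61 cells and names no shared control.

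By list, the mean level of the other glycolysis genes had a rho of 0.536 with the mean of the 10 genes, over 9 measured genes. Its gene median was 0.148, with genes from -0.322 to 0.584, and the list holds both Eno1 and Eno1b, which had a rho of 0.961. The rho of the list mean was 0.379 for 6 core pluripotency genes and 0.332 for 14 HIF targets outside glycolysis. It was 0.321 for 28 nuclear genes of oxidative phosphorylation and 0.293 for 14 regulators of glycolysis genes. It was 0.211 for the pentose phosphate pathway, 0.199 for the TCA cycle, 0.159 for S phase, 0.127 for lactate export and pyruvate entry, 0.072 for G2/M, 0.062 for PFKFB and TIGAR control of phosphofructokinase and -0.057 for mitochondrially encoded genes. The HIF targets ran both ways, with a gene median of 0.049: the mitophagy receptor gene Bnip3 stood at 0.471 and the mitochondrial inner membrane gene Higd1a at 0.451, but Bnip3l at -0.208 and Bhlhe40 at -0.233. Core pluripotency genes also ran both ways, from -0.273 (Zfp281) to 0.410 (Sall4). The list of formative and primed genes had a value of 0.140, and its genes ran from -0.418 (the keratin gene Krt8) to 0.439 (Dnmt3a). Of the other lists, the pyruvate dehydrogenase kinase gene Pdk1 stood at 0.399 and the lactate exporter gene Slc16a3 at 0.349. Hif1a, which encodes the oxygen-regulated subunit of HIF, stood at 0.287, Lin28a at 0.242, Mycn at 0.095, Myc at 0.052 and the transporter gene Slc16a1 at -0.067. Single oxidative phosphorylation genes ran both ways, from -0.175 (Cox4i1) to 0.362 (Ndufb8) among the nuclear genes, and mt-Cytb, encoded in the mitochondrion, stood at -0.297.

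A set of 4 per-cell measures was then tested as predictors of each gene by the edgeR quasi-likelihood test over all kept genes, and the share of detected genes was a covariate. A slope is the log2 change per SD of the measure, ± SE, and p-values were adjusted by the Benjamini-Hochberg method over all genes tested. None of the 10 genes passed an adjusted p of 0.05 with any of the 4 measures.

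The first measure was a naive pluripotency score over marker genes such as Nanog, Zfp42 and Esrrb, which asks whether the pathway follows the naive state. In edgeR 0 of 10 genes passed, against 5.89% of the 10853 genes tested, and 1 had an unadjusted p under 0.05; DESeq2 and limma-trend also called 0 of the 10. The slopes ran from -0.16 (Slc2a1, ± 0.21) to 0.34 (Gpi1), 6 were above 0, and their median was 0.03 against -0.05 over all genes. Gpi1 had a slope of 0.34 ± 0.13 (unadjusted p = 0.0145, edgeR adjusted p = 0.145), and its adjusted p ran from 0.0628 (limma-trend) to 0.959 (well rows E to H) in the alternatives. Aldoa had 0.13 ± 0.08 and Ldha -0.11 ± 0.11. Pkm had 0.09 ± 0.06. In the 52 cells below the largest gap of the score, the Slc2a1 slope was -1.13 and did not pass (edgeR adjusted p = 0.503).

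The score had a gap between 1.13 and 1.52, with 52 cells below and 9 above, so no correlation over all cells is given for it. In the 52 cells below the gap, its rho with the mean of the 10 genes was 0.218. Its rho with the Ldha share of lactate dehydrogenase was 0.566 in the same cells, 0.634 in the 27 of them in well rows A to D and 0.498 in the 25 in rows E to H. Ldhb itself had a slope of -0.39 ± 0.24 (edgeR adjusted p = 0.467) and Slc2a3 of -0.49 ± 0.17 (edgeR adjusted p = 0.0837), and neither passed. Of the 9 tested genes of other glycolysis steps, 0 passed; the rest had slopes of 0.56 ± 0.27 (Pfkp), 0.17 ± 0.09 (Gapdh), 0.07 ± 0.05 (Eno1), 0.07 ± 0.06 (Eno1b), 0.04 ± 0.60 (Pfkm), -0.26 ± 0.61 (Bpgm, the erythrocyte-type mutase gene, in 25 cells) and -1.36 ± 0.97 (Eno3, in 26 cells).

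Calls among other lists on the naive score are read against the 5.89% called over all genes. They rest on all 61 cells: in the 52 cells below the gap 13 genes were called in all (6 rose and 7 fell) against 639, and 0 of the 13 list genes named in this paragraph passed there. In well rows A to D 3 of the 11 of them that could be tested passed, and in rows E to H 1 of 11. On simulated data the test also made more false calls than its threshold allows. Of 14 regulators 1 rose, Mycn, which encodes N-Myc (0.93 ± 0.29, edgeR adjusted p = 0.0428), and 0 fell, with a list median of -0.25; below the gap Mycn had 1.62 ± 0.61 (edgeR adjusted p = 0.326). Of 17 TCA cycle genes 1 fell, Dlst, a subunit gene of the oxoglutarate dehydrogenase complex (-1.67 ± 0.48, edgeR adjusted p = 0.0230), with a median of 0.02. Of 14 HIF targets outside glycolysis 1 fell, the transcription factor gene Bhlhe40 (-3.68 ± 0.76, edgeR adjusted p = 0.000957), with a median of -0.17. In edgeR 0 of 28 oxidative phosphorylation genes, 0 of 7 pentose phosphate genes, 0 of 11 genes of lactate export and pyruvate entry and 0 of 4 PFKFB and TIGAR genes passed. Of the 14 genes in the formative and primed list, Fgf5, Pou3f1 and Sall2 fell, and so did Krt8 and Krt18. Krt8 and Krt18 are epithelial keratin genes that were placed in that list. In the remaining lists Sall4, of 6 core genes, and mt-Nd1, of 11 mitochondrial genes, rose. Cks1b and Lbr, of 54 G2/M genes, and Nes, of 2 neurectoderm genes, fell.

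The second measure was the mean of HIF targets outside glycolysis, which asks whether the pathway moves with the rest of that response. In edgeR 0 of 10 genes passed, and so did 0% of the 10854 genes tested; at an unadjusted p under 0.05 there were 2 of 10 and 270 of all genes. DESeq2 called 3 of all genes and limma-trend 1, and neither called any of the 10. All 10 slopes were above 0, from 0.01 (Pgam1, ± 0.13) to 0.40 (Tpi1), with a median of 0.14 against 0.02 over all genes. The list of 54 G2/M genes had a like median of 0.14, with 41 slopes above 0, and since the 10 genes are related among themselves their shared sign was not shown to be particular to glycolysis. Tpi1 had 0.40 ± 0.12 (unadjusted p = 0.00128, edgeR adjusted p = 0.889) and Ldha 0.27 ± 0.11 (unadjusted p = 0.0176, edgeR adjusted p = 0.999). Slc2a1 had 0.36 ± 0.26, Pfkl 0.24 ± 0.17, Aldoa 0.15 ± 0.09 and Pkm 0.13 ± 0.07. The count of slopes above 0 was 8 to 10 across the alternatives, and Pgam1 changed sign in 6 of them. Tpi1 passed in 1 alternative, with all genes tested and no filter on low counts (edgeR adjusted p = 0.0369, within a range up to 1 over its alternatives). In the windows printed above, Ldha had 5 matches of the HIF core, with each CACGTG counted on both strands, and Tpi1 had 0. A relation between matches and slopes was not tested. Eno1 had 0.15 ± 0.06, Eno1b 0.13 ± 0.06, Slc2a3 -0.12 ± 0.20 and Ldhb -0.08 ± 0.27, and 0 genes of any list passed.

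**Figure D4:**
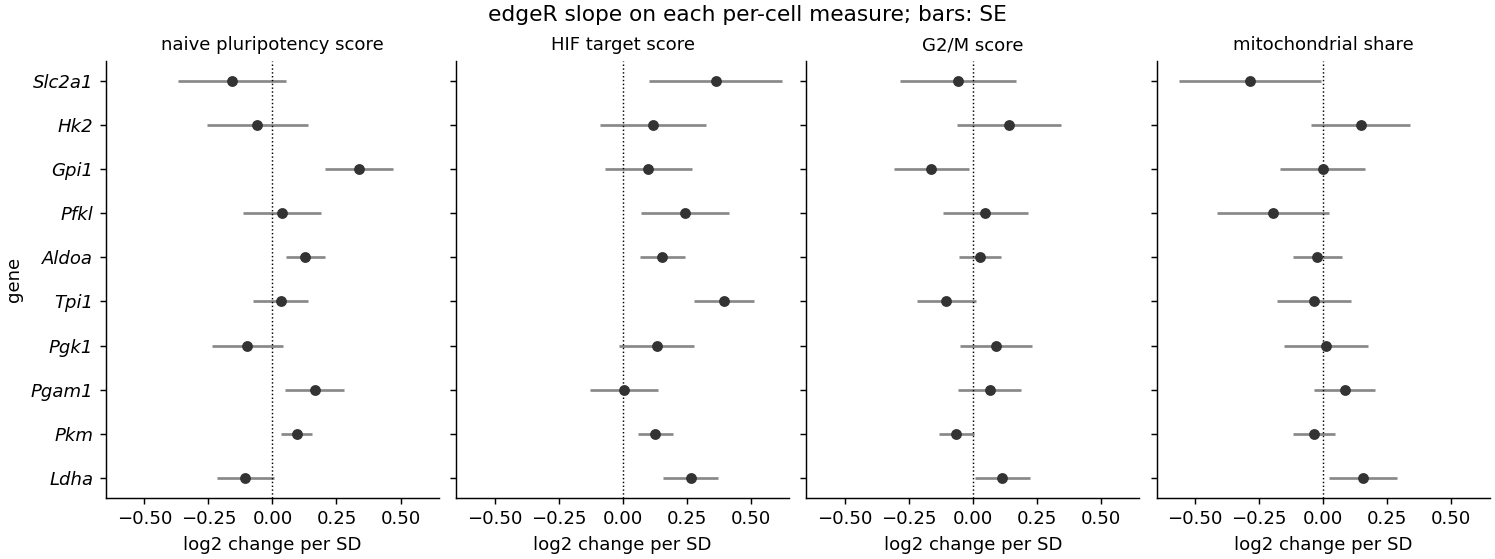
Slope of each of the 10 genes (y axis) on 4 per-cell measures, 1 panel each, from edgeR fits that include the share of detected genes (x axis, log2 change per SD; points are slopes and bars their SE, 61 cells). None passes an adjusted p of 0.05, and all 10 lie above 0 on the HIF target score, from 0.01 to 0.40.

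The third measure was a G2/M score, which asks whether the genes follow the cell cycle. In edgeR 0 of 10 passed, against 0.194% of 10814 genes, and 0 had an unadjusted p under 0.05; DESeq2 and limma-trend called 0 of the 10. The slopes ran from -0.16 (Gpi1, ± 0.15) to 0.14 (Hk2, ± 0.20), with a median of 0.04 and 0.0047 over all genes.

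The fourth measure was the share of counts on mitochondrially encoded genes, from 0.0300% to 3.25% of a cell's counts. In edgeR 0 of 10 passed, against 0.0184% of 10857 genes, and 0 had an unadjusted p under 0.05; DESeq2 and limma-trend again called 0 of the 10. The slopes ran from -0.28 (Slc2a1, ± 0.28) to 0.16 (Ldha, ± 0.13), with a median of -0.01 and 0.03 over all genes. The rho of the measure with the mean of the 10 genes was -0.125. The absence of a passing slope on the 4 measures does not show that no relation exists.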

How the data were processed

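RNA of single E14 cells was analysed from the deposited table of raw counts per gene, with 36300 rows, 95 of them ERCC spike-in names holding 14 counts, which were left out. The submitters' processing notes name GRCm38, DESeq2, bedtools 2.19.1, SAMtools 0.1.18 and GSNAP; how reads were assigned to genes, with which annotation and whether by strand, is not given in the sources used here. No molecular identifiers are named in the labels, so a count is a read and not a molecule. The deposited normalized table holds a signal that the authors scaled from the raw counts; its factors do not stay with a column, so it served as an alternative only. Symbols were found for 34880 of 36205 identifiers.

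A gene was kept where 10 or more cells each had 10 or more counts (10868 genes). TMM scaling and quasi-likelihood slopes used edgeR 4.0.16, adjusted for the share of detected genes. For each score, log2(CPM + 1) values of a list were z-scored, averaged per cell and scaled to an SD of 1, and the mitochondrial measure was the log2 share, scaled likewise; genes of a list were not tested against its own score. The SE is approximate, taken as the size of the slope over the root of its F value. Variability used scran 1.30.0 (modelGeneCV2, ratios only), and alternatives used DESeq2 1.42.0 and limma 3.58.1. Correlations are Spearman's on residuals from a linear fit on the share of detected genes, except shares of isozymes. Shared sequence was counted in 50-base windows of GENCODE M21 transcripts. Promoter sequences are from RefSeq on GRCm38.p6; all 10 symbols matched. On simulated data the slope test made more false calls than its threshold allows.

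The text names all 10 genes, the measured genes of the list of other glycolysis steps, list genes that passed, and the 10 genes most and 5 least like the mean of the 10; cells, pairs and list genes named beyond these were chosen after their values were seen. The 10 genes and the lists were chosen with earlier results of these data known. The replicate number is only the well, so no samples pair. Values of some listed genes are not reported here.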

Additional observations from a re-analysis of the deposited data

How the results depend on the processing

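The count of the 10 genes with a passing slope stayed at 0 in the 11 alternatives of the naive, G2/M and mitochondrial measures and in 10 of 11 for the HIF target score; with no filter on low counts 1 gene passed there, Tpi1 (slope 0.37), in a setting where 1191 genes rose and 1628 fell of 21235. Over the 4 measures and 10 genes, 41 of 440 recomputed values changed sign, 15 on the naive score, 10 on the HIF target score, 8 on the G2/M score and 8 on the mitochondrial share. Of the slopes named in the text, sign changed for Aldoa on the naive score in well rows E to H (-0.064), for Pkm there (-0.0040) and under the naive gap (-0.0075), for Ldha on the naive score under that gap (0.27), for Hk2 on the G2/M score in rows A to D (-0.072) and for Pgam1 on the HIF target score with DESeq2 size factors (-0.0084), no filter (-0.046), limma-trend (-0.051), rows A to D (-0.063), cells under the naive gap (-0.070) and thinned counts (-0.039); none of the 41 passed, and the cause was not tested. The mean pairwise rho stayed between 0.191 and 0.298. The relations of single pairs, of Slc2a3, Ldhb, Gapdh and Eno1 with the mean and of the Ldha share, and the list genes called on the naive score, were recomputed in settings chosen after seeing the data. No paired analysis was possible because all cells form 1 group. The size of slope that these 61 cells of 1 culture could show was not measured; thinning each cell to 2417702 counts left 154 rising and 512 falling genes on the naive score, against 132 and 507.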
